A study of Mus musculus with 24 samples.

Results

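The genes described here are 9 genes of fat uptake, storage and release, namely Lpl, Cd36, Fabp4, Acsl1, Scd1, Dgat2, Plin4, Pnpla2 and Cebpa, followed in fibroblasts and keratinocytes sorted from mouse back skin. They were taken by name: all probe sets that carry one of these symbols in the authors' lists of regulated genes, with older symbols matched by Entrez identifier (Plin4 is listed as S3-12). That gave 14 probe sets of 45037 tested and 9 genes of 4560 that have a name here. Because a probe set is named here only if the authors listed it as changed between some pair of groups, each of the 14 had already passed one of their thresholds somewhere.

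The study sorted GFP+ dermal fibroblasts and ItgA6+ epidermal keratinocytes (ItgA6 is an integrin on basal keratinocytes) and measured their RNA on 24 Affymetrix arrays, 3 for each of 8 groups. All mice were of a mixed C57BL/6 CBA background. Both compartments were taken from wild-type neonatal skin, from wild-type skin in telogen (the resting phase of the hair cycle), from D2 skin after transient activation (in anagen, the growing phase) and from D2 skin after sustained activation (with ectopic follicles). As background, D2 mice carry an activatable beta-catenin driven by a keratin promoter, so the transgene acts in the epidermis and not in the fibroblasts. D2 genotype and activation cannot be told apart against wild-type telogen skin, because no unactivated D2 skin is among the 8 groups. Age is given only as neonatal, and the reporter behind the GFP signal is not named in the labels used here.

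Fat cells take up fatty acids released from circulating lipoproteins, bind them in the cytosol, activate them with coenzyme A, desaturate and esterify them to triglyceride, and keep that triglyceride in droplets coated by perilipins until lipases release it. In skin, dermal fibroblast precursors give rise to the fat layer beneath the follicles, which expands and shrinks with the hair cycle, and sebocytes and keratinocytes run much of the same chemistry for sebum and barrier lipids. The 9 genes are therefore not markers of fat cells alone.

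The name "adipocyte genes" could be checked with 1 of 9 defining fat cell markers, since the other 8 have no name here. That marker, Pparg (the master regulator of fat cell formation), had mean log2 signals of 3.86 in telogen dermis, 2.23 after transient activation, 3.68 after sustained activation and 6.72 in neonatal dermis, with telogen arrays from 1.41 to 5.24. In keratinocytes the corresponding means were 6.73, 5.44, 6.74 and 5.81. Among dermal states only the neonatal excess of Pparg over transient activation, 4.48, passed the limma threshold given below. That over telogen, 2.86, and that over sustained activation, 3.04, did not. The transient dermal mean and the lowest telogen dermal array are near the noise. In telogen skin 6 of the 9 genes were lower in the fibroblasts than in the keratinocytes, so they are called fat storage genes below and not adipocyte genes.

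Signals are log2 of a scaled array intensity, on which each array has the same trimmed linear mean. Array medians were 4.34 to 5.06 in the dermis and 4.57 to 5.50 in the epidermis, where replicate 4 of the transient group stood apart with the highest. Signals under 3 are near the noise of these arrays, and no detection calls were used here. The 9 named fibroblast markers summed to a linear signal of 27268 to 31880 in telogen dermis and 3797 to 4910 in telogen epidermis, and the 5 named keratinocyte markers to 489.7 to 835 and 7250 to 9468, which fits the labelled compartments. In neonatal epidermis the fibroblast sum was higher, at 7630 to 9182. Signal per array cannot separate fewer cells of a type from less RNA per cell. The threshold for calling a probe set changed was 0.05 for limma p-values, which were adjusted by Benjamini-Hochberg across the 45037 probe sets tested. Values after ± are standard errors of a difference.

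**Figure D1:**
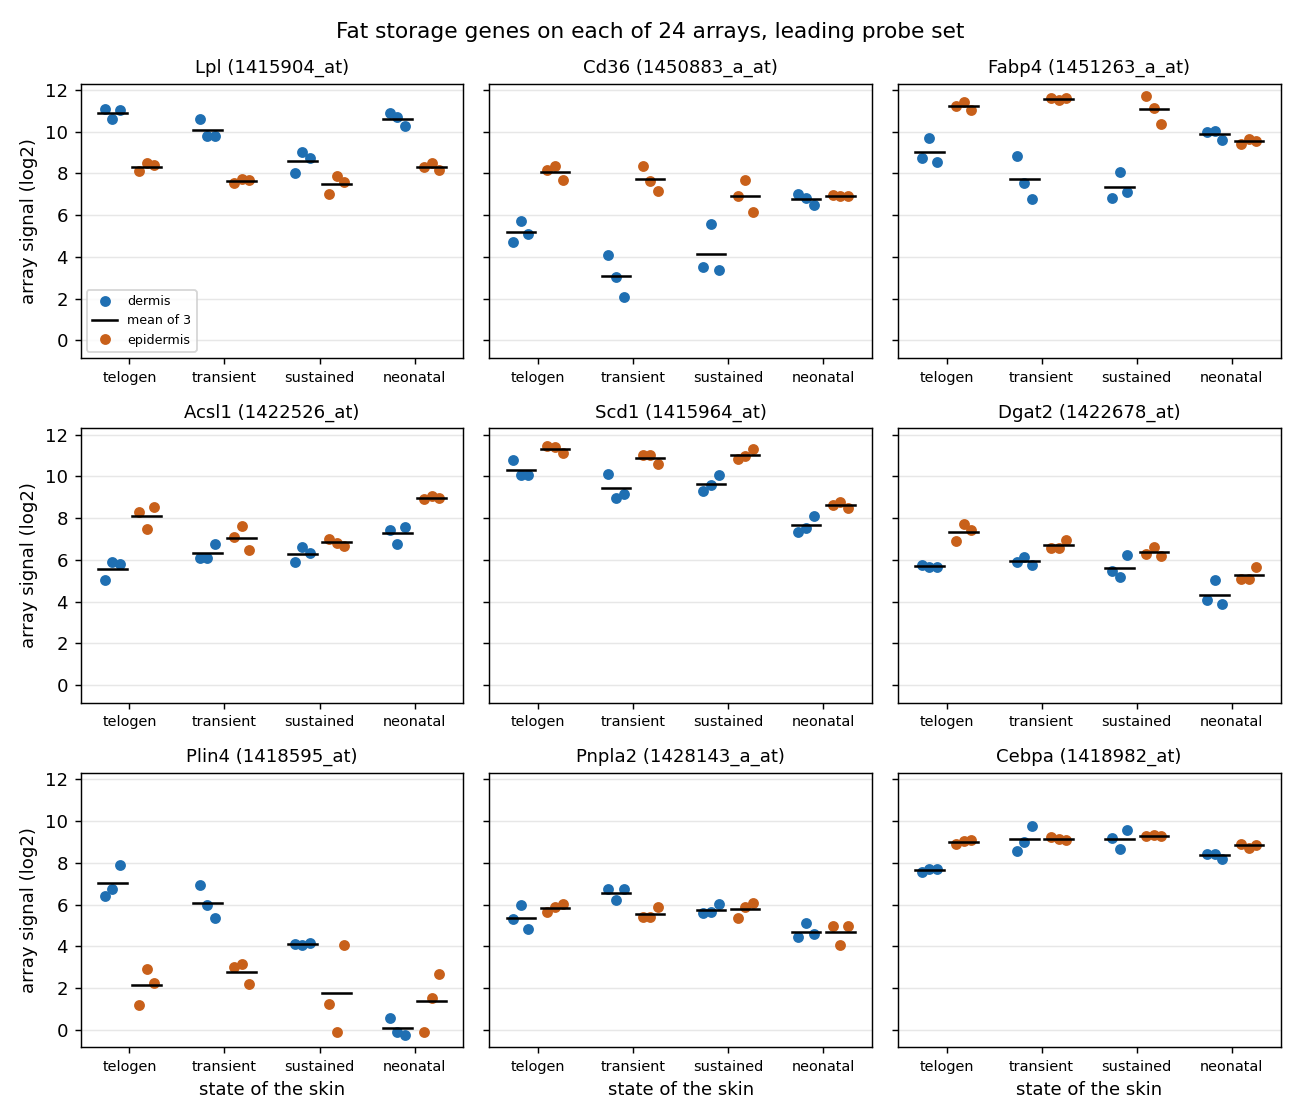
Log2 array signal (vertical axis) of the leading probe set of each gene on every array, by state of the skin (horizontal axis). Points are arrays, blue for dermis and orange for epidermis, and black lines are means of 3. Plin4 falls below 1 in all 3 neonatal dermal arrays, and Lpl is lowest in the dermis after sustained activation.

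Lpl, lipoprotein lipase, frees fatty acids from lipoproteins at the cell surface. In telogen dermis its leading probe set read 11.07, 10.61 and 11.06, and in neonatal dermis 10.87, 10.70 and 10.29. After transient activation the dermal arrays read 10.60, 9.81 and 9.81, and after sustained activation 8.0, 9.02 and 8.76. The sustained arrays lay below those of every other dermal state, while neonatal and telogen arrays overlapped. Lpl fell by 4.98-fold from telogen to sustained activation, a log2 difference of -2.31 ± 0.34 (SE, 3 arrays per group, limma adjusted p = 0.00344), and its second probe set gave -2.37 ± 0.30 (limma adjusted p = 0.00192). Neonatal dermis was above sustained dermis by 2.02 ± 0.34 (limma adjusted p = 0.0114) and differed from telogen by -0.29, with a 95% interval of -1.05 to 0.47. From transient to sustained activation the second probe set was called at -1.53 ± 0.30 (limma adjusted p = 0.0347), whereas the leading one, at -1.48, was not (limma adjusted p = 0.0559).

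In keratinocytes Lpl was lower throughout. Telogen epidermis read 8.11, 8.49 and 8.39, transient 7.56, 7.71 and 7.68, sustained 7.0, 7.88 and 7.58 and neonatal 8.31, 8.51 and 8.15. Lpl was higher in fibroblasts than in keratinocytes in all 4 states, by 2.58 ± 0.29 log2 units in telogen, 2.42 ± 0.29 after transient activation and 2.30 ± 0.29 in neonates, and by a smaller 1.11 ± 0.29 after sustained activation (limma adjusted p from 3.03e-06 to 0.0163). The change of the compartment difference from telogen to sustained skin was -1.47 ± 0.42, which missed the threshold (limma adjusted p = 0.0682). The 3 named endothelial markers of 12 (Tek, Kdr and Flt1), whose sum Tek dominates in telogen, summed to 387 to 549 in telogen dermis, 126 to 276 after transient and 16.1 to 75.4 after sustained activation, and 39.4 to 64.6 in neonatal dermis, where Lpl overlapped with telogen. From telogen to sustained activation 2 of the 3 were called lower, and Flt1 had means of 3.16 in telogen, 1.83 after transient and 3.58 after sustained activation. In epidermis the same markers summed to 329 to 395 in telogen and 175 to 320 after transient activation. After sustained activation they summed to 141 to 306 there, and in neonates to 157 to 186. Their part in the Lpl result was not tested.

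Cd36, a fatty acid translocase of the plasma membrane, was in dermis at 4.70, 5.74 and 5.10 in telogen, 4.11, 3.04 and 2.10 after transient activation, 3.49, 5.59 and 3.38 after sustained activation and 7.0, 6.82 and 6.49 in neonates. All 3 neonatal arrays exceeded all other dermal arrays, and 1 sustained array (replicate 3) sat with the telogen group. The neonatal excess was called against transient activation only, at 3.69 ± 0.65 (SE, limma adjusted p = 0.00712). Against sustained activation it was 2.62 ± 0.65 (limma adjusted p = 0.0531) and against telogen 1.59 ± 0.65 (limma adjusted p = 0.142). Keratinocyte values were 8.15, 8.37 and 7.71 in telogen, 8.35, 7.64 and 7.17 after transient activation, 6.93, 7.68 and 6.15 after sustained activation and 6.96, 6.93 and 6.93 in neonates. Cd36 was thus higher in keratinocytes by 7.45-fold in telogen (-2.90 ± 0.56, limma adjusted p = 0.00072), 25-fold after transient activation (limma adjusted p = 6.43e-06) and 6.8-fold after sustained activation (limma adjusted p = 0.00203). In neonates the difference was -0.17, with a 95% interval of -1.34 to 1.01.

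Fabp4, the fatty acid binding protein best known from fat cells and macrophages, was higher in neonatal than in activated dermis and lower in neonatal than in telogen epidermis. Its leading probe set read 8.76, 9.71 and 8.55 in telogen dermis, 8.83, 7.55 and 6.78 after transient activation, 6.83, 8.08 and 7.09 after sustained activation and 9.99, 10.05 and 9.60 in neonatal dermis. Neonatal dermal arrays lay above both activated groups and overlapped with the telogen group, in which replicate 3 was highest. Neonatal dermis exceeded transient dermis by 2.16 ± 0.54 (SE, limma adjusted p = 0.036) and sustained dermis by 2.55 ± 0.54 (limma adjusted p = 0.0292), and the second probe set was called in both comparisons too. For the leading probe set the first call was lost without any 1 neonatal array or transient replicate 3 or 4 (adjusted p of 0.0754 to 0.107), and the second without any 1 neonatal array or sustained replicate 2 or 5 (adjusted p of 0.0691 to 0.1). The second probe set lost its call against transient dermis without neonatal replicate 1 or 2 or transient replicate 3 or 4 (adjusted p of 0.0604 to 0.083), and against sustained dermis without any 1 of the 6 arrays (adjusted p of 0.0568 to 0.111). Keratinocytes read 11.25, 11.43 and 11.06 in telogen, 11.62, 11.54 and 11.60 after transient activation, 11.70, 11.15 and 10.35 after sustained activation and 9.39, 9.65 and 9.55 in neonates. Neonatal keratinocytes were lower than telogen keratinocytes by 3.28-fold (-1.71 ± 0.32, limma adjusted p = 0.0125), with -2.51 ± 0.43 on the second probe set (limma adjusted p = 0.00923). Without telogen replicate 3 the leading value lost its call (adjusted p = 0.0548), and the second kept it without each array in turn.

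Macrophage markers, 12 named of 17, were set beside Fabp4 and Cd36 because macrophages also express both. They summed to 4461 to 6383 in telogen epidermis, 1344 to 2888 after transient activation, 759 to 1017 after sustained activation and 2257 to 3210 in neonates. Fabp4 was at 10.35 to 11.70 in sustained epidermis, where the macrophage sum was lowest, and at 9.39 to 9.65 in neonatal epidermis, where the sum was higher. In the dermis the sum was 1264 to 1384 in telogen and 188 to 266 in neonates, where Fabp4 and Cd36 were at their highest. In the epidermis the mean of Cd36 and the macrophage sum were both highest in telogen. The endothelial sums given with Lpl had epidermal means of 367 in telogen, 242 after transient and 244 after sustained activation and 169 in neonates. In dermis these means were 455, 195, 47.6 and 49.9 in the same order. The part of macrophages or endothelial cells in the results on either gene was not tested in either compartment.

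Acsl1, an acyl-CoA synthetase that activates long-chain fatty acids, rose in neonatal dermis. Dermal values were 5.02, 5.88 and 5.81 in telogen, 6.06, 6.08 and 6.77 after transient activation, 5.88, 6.63 and 6.33 after sustained activation and 7.44, 6.78 and 7.59 in neonates. The neonatal arrays were the 3 highest, and telogen replicate 2 was the lowest. The neonatal rise over telogen was 3.24-fold, 1.70 ± 0.35 on the log2 scale (SE, limma adjusted p = 0.0118), while the other 2 probe sets gave 0.88 ± 0.33 (limma adjusted p = 0.117) and 1.15 ± 0.52 (limma adjusted p = 0.186). Keratinocytes read 8.30, 7.46 and 8.53 in telogen, 7.10, 7.61 and 6.49 after transient activation, 7.02, 6.81 and 6.66 after sustained activation and 8.93, 9.04 and 8.96 in neonates. On this leading probe set neonatal keratinocytes were highest. They exceeded those with sustained activation by 2.15 ± 0.35 (limma adjusted p = 0.0104) and those with transient activation by 1.91 ± 0.35 (limma adjusted p = 0.015). The excess over telogen, 0.88, was not called, nor was that of the other 2 probe sets. Their neonatal means were also highest, at 8.23 and 6.55. Single arrays overlapped, with telogen (up to 8.27) on the second and with transient activation (up to 6.63) on the third. The 3 probe sets follow each other less well in the dermis than in the epidermis: the leading one correlated with the others at r = 0.52 and 0.40 over 12 dermal arrays, and at 0.93 and 0.68 over 12 epidermal arrays.

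Scd1, the stearoyl-CoA desaturase that makes monounsaturated fatty acids, was low in neonatal skin of both compartments. Dermal arrays read 10.77, 10.04 and 10.08 in telogen, 10.10, 8.98 and 9.18 after transient activation, 9.31, 9.58 and 10.04 after sustained activation and 7.33, 7.52 and 8.12 in neonates. Keratinocyte arrays read 11.46, 11.40 and 11.14 in telogen, 11.03, 11.03 and 10.60 after transient activation, 10.84, 10.97 and 11.29 after sustained activation and 8.63, 8.79 and 8.47 in neonates. In each compartment all 3 neonatal arrays were below all 9 others. From telogen to neonatal skin Scd1 was lower by 6.23-fold in dermis (-2.64 ± 0.37, SE, limma adjusted p = 0.00166) and by 6.5-fold in epidermis (-2.70 ± 0.23, limma adjusted p = 0.000393). The 2 differences were apart by 0.06 ± 0.43 (limma adjusted p = 0.965), with a 95% interval of -0.85 to 0.97. The second probe set gave -2.73 ± 0.35 and -2.74 ± 0.30, and followed the leading one at r = 0.98 over the 12 arrays of each compartment. The summed signal of sebocyte markers, 6 named of 11, was also lower in neonatal skin: 2032 to 2246 in telogen and 672 to 751 in neonatal dermis, and 3343 to 3726 and 1504 to 1682 in epidermis. In dermis 2 of the 6 markers were called lower and 0 higher, Mgst1, which carries most of the sum (means of 10.58 in telogen and 8.12 in neonates), and Scd3, while Krt79 had means of 7.03 and 6.69 and Pparg of 3.86 and 6.72. In epidermis 3 of the 6 were called lower and 0 higher. Their part in the Scd1 result was not tested.

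Dgat2, which adds the last fatty acid to triglyceride, was also lower in neonatal skin. In dermis it read 5.76, 5.65 and 5.66 in telogen, 5.90, 6.16 and 5.74 after transient activation, 5.46, 5.20 and 6.22 after sustained activation and 4.06, 5.03 and 3.87 in neonates. Keratinocytes gave 6.89, 7.70 and 7.42 in telogen, 6.56, 6.58 and 6.97 after transient activation, 6.28, 6.62 and 6.18 after sustained activation and 5.07, 5.09 and 5.67 in neonates. The neonatal arrays were the lowest 3 in each compartment. Dgat2 was lower in neonatal than in telogen epidermis by 4.16-fold (-2.06 ± 0.29, SE, limma adjusted p = 0.00391), a call that held without each array in turn. The dermal difference was -1.37 ± 0.35 (limma adjusted p = 0.0298), and it was lost without neonatal replicate 1 or 3 or any 1 telogen array (adjusted p of 0.0576 to 0.102).

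Plin4, a perilipin that coats nascent lipid droplets, had the widest range of dermal group means among the 9 genes. Its dermal signals were 6.40, 6.76 and 7.91 in telogen, 6.92, 5.97 and 5.37 after transient activation, 4.10, 4.08 and 4.15 after sustained activation and 0.55, -0.11 and -0.25 in neonates. The 4 states stepped down in that order, with overlap between telogen and transient activation only. The sustained group was lower than telogen by 7.55-fold (-2.92 ± 0.47, SE, limma adjusted p = 0.00521) and the neonatal group by a log2 difference of -6.96 ± 0.47 (limma adjusted p = 4.03e-05). The neonatal signals lay between percentiles 6.18 and 9.77 of their arrays, so the size of that fall is not well measured: with 16 added to the linear signals it was -3.11 and still called. The step from sustained to neonatal dermis, -4.05 ± 0.47 (limma adjusted p = 0.00207), shrank to -0.96 with that offset and lost its call (adjusted p = 0.0999). In keratinocytes all groups were low and scattered, from 1.20 to 2.92 in telogen to -0.10 to 4.08 after sustained activation, and no difference between epidermal states was called. Telogen fibroblasts exceeded telogen keratinocytes by 4.90 ± 0.82 (limma adjusted p = 0.000199).

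Pnpla2, the lipase that starts triglyceride breakdown in droplets, was highest in dermis after transient activation. Dermal arrays read 5.30, 5.97 and 4.80 in telogen, 6.75, 6.21 and 6.73 after transient activation, 5.58, 5.65 and 6.01 after sustained activation and 4.46, 5.09 and 4.57 in neonates. The transient arrays were the highest 3 of 12 and the neonatal arrays among the lowest. The neonatal group was lower than the transient group by 3.62-fold (-1.85 ± 0.33, SE, limma adjusted p = 0.00773), and the transient excess over telogen, 1.20 ± 0.33, was not called (limma adjusted p = 0.154). Epidermal values were 5.62 to 6.04 in telogen, 5.38 to 5.89 after transient activation, 5.35 to 6.09 after sustained activation and 4.08 to 4.96 in neonates, with no call between states.

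Cebpa, a transcription factor that drives late fat cell differentiation and also acts in keratinocytes, had higher dermal means after transient and sustained activation than in telogen. Of the activated states, only sustained activation had Lpl and Plin4 called lower than in telogen dermis. Dermal values were 7.55, 7.73 and 7.68 in telogen, 8.57, 9.02 and 9.78 after transient activation, 9.17, 8.66 and 9.58 after sustained activation and 8.44, 8.42 and 8.20 in neonates. All activated arrays were above all telogen and neonatal arrays. Cebpa rose by 2.8-fold from telogen to sustained activation (1.49 ± 0.33, SE, limma adjusted p = 0.0214). The transient difference was nearly as large, 1.47 ± 0.33, but was not called (limma adjusted p = 0.0945). The sustained call was lost without telogen replicate 2 or 4 or sustained replicate 2 or 5 (adjusted p of 0.0557 to 0.0724), and with arrays centred on their medians it was 0.97 (adjusted p = 0.0714). In keratinocytes no difference between states was called for Cebpa, which was at 8.88 to 9.07 in telogen, 9.09 to 9.22 after transient activation, 9.29 to 9.32 after sustained activation and 8.72 to 8.91 in neonates. The 5 named keratinocyte markers of 12 were also higher in activated dermis, summing to 489.7 to 835 in telogen, 799 to 1187 after transient and 1348 to 2092 after sustained activation, and their part in the Cebpa result was not tested.

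**Figure D2:**
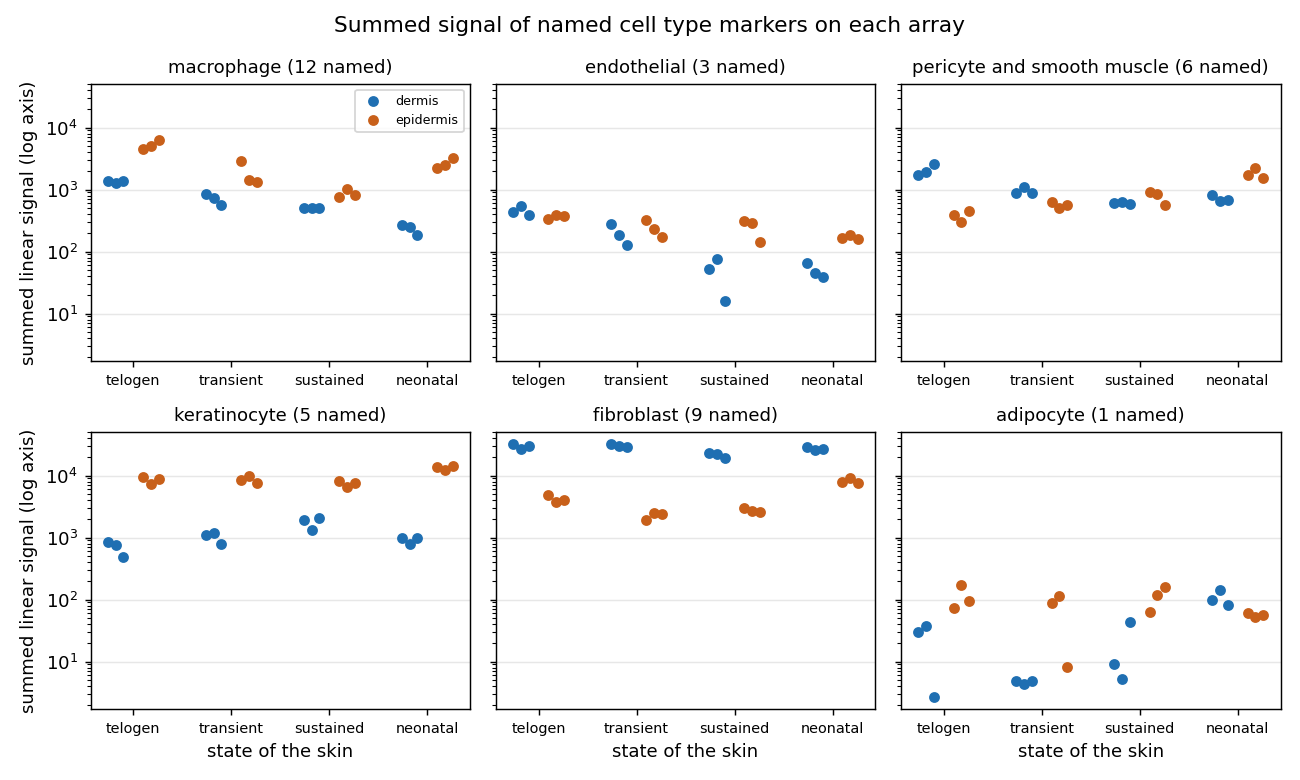
Summed linear signal (vertical axis, logarithmic) of the named markers of 6 cell types on each array, by state of the skin (horizontal axis), blue for dermis and orange for epidermis. Macrophage, endothelial and pericyte sums are highest in telogen among the dermal states, and the keratinocyte sum is highest there after sustained activation, at 1348 to 2092.

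The promoters of Cebpa, called higher in dermis after sustained activation, and Plin4, called lower, are shown to set 2 genes that moved in opposite directions side by side, as the 250 bases before the start of transcription, 5′ to 3′ on the gene's strand, from RefSeq on build GRCm38.p6. Cebpa lies at chr7:35119043-35119292 on the plus strand and Plin4 at chr17:56109783-56110032 on the minus strand. Capitals mark matches to the motifs searched, on either strand.
Cebpa: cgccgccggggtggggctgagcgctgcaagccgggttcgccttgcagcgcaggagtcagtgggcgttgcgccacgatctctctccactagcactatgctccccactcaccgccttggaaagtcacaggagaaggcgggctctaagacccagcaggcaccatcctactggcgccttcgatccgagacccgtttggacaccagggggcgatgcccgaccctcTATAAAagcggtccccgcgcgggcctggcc
Plin4: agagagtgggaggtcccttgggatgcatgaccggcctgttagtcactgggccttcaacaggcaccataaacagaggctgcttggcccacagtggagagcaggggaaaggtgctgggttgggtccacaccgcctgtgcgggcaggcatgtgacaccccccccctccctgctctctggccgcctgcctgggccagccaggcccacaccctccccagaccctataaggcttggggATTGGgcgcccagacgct
Searched were the TATA box as TATAAA, the CCAAT box as CCAAT and the Sp1 box as GGGCGG. The sterol element was searched as TCACNCCAC, and the spaced direct repeat bound by PPAR and RXR by its consensus. The palindrome of C/EBP factors was searched as TTGCGCAA and, in a looser form that includes it, as TTGCNNAA. Cebpa holds a TATAAA whose first letter is 30 bases before the start, and 12.4% of 32851 promoters of this length hold that motif. Plin4 holds a CCAAT on the opposite strand, printed as ATTGG, 18 bases before the start, a motif found in 33.8% of promoters. Promoters were matched for 5 of the 9 genes, and Lpl, Fabp4, Scd1 and Dgat2 are named only. Those of Cd36 and Pnpla2 and 1 of 2 for Acsl1 hold GGGCGG (32.7% of promoters), Cd36 and the other Acsl1 promoter hold CCAAT, and the latter holds TCACNCCAC (1.05%). No match to the nuclear receptor or C/EBP motifs (0.0335%, 0.164% and 9.56% of promoters) lies in these windows.

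Neonatal and telogen skin were compared to see how fat storage genes differ between newborn and resting skin. In dermis Acsl1 was higher and Plin4, Scd1 and Dgat2 were lower in neonates, and in epidermis Scd1, Fabp4 and Dgat2 were lower. That is 5 of 14 member probe sets in dermis, 1 higher and 4 lower, where 13.3% of all probe sets, 7.25% higher and 6.06% lower, and 51.6% of named genes were called. In epidermis 5 were lower and 0 higher, where 6.99% of all probe sets, 2.84% higher and 4.15% lower, and 29.1% of named genes were called. The share of named genes counts 1 probe set per gene. Counted so, 4 of 9 members were called in dermis and 3 of 9 in epidermis, near the shares of named genes. In dermis the median log2 difference was -0.29 over the 9 genes but 0.28 over the 14 probe sets, beside 0.18 over all probe sets and -0.14 over named genes, so its sign depends on how probe sets are counted. In epidermis it was -1.14 over the 9 genes and -0.94 over the 14 probe sets, beside -0.01 over all probe sets and -0.09 over named genes. Macrophage, endothelial, sebocyte and pericyte marker sums were lower in neonatal than in telogen dermis, with 4 of 12 macrophage and 1 of 3 endothelial markers called lower and 0 higher. The 6 named pericyte and smooth muscle markers of 7 summed to 656 to 822 against 1731 to 2588, but 2 were called higher and 2 lower: Kcnj8, which carries much of the sum, had means of 6.28 in neonates and 10.50 in telogen, Acta2 of 8.16 and 6.56 and Cspg4 of 8.06 and 6.03. The part of these cell types in the differences was not tested.

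**Figure D3:**
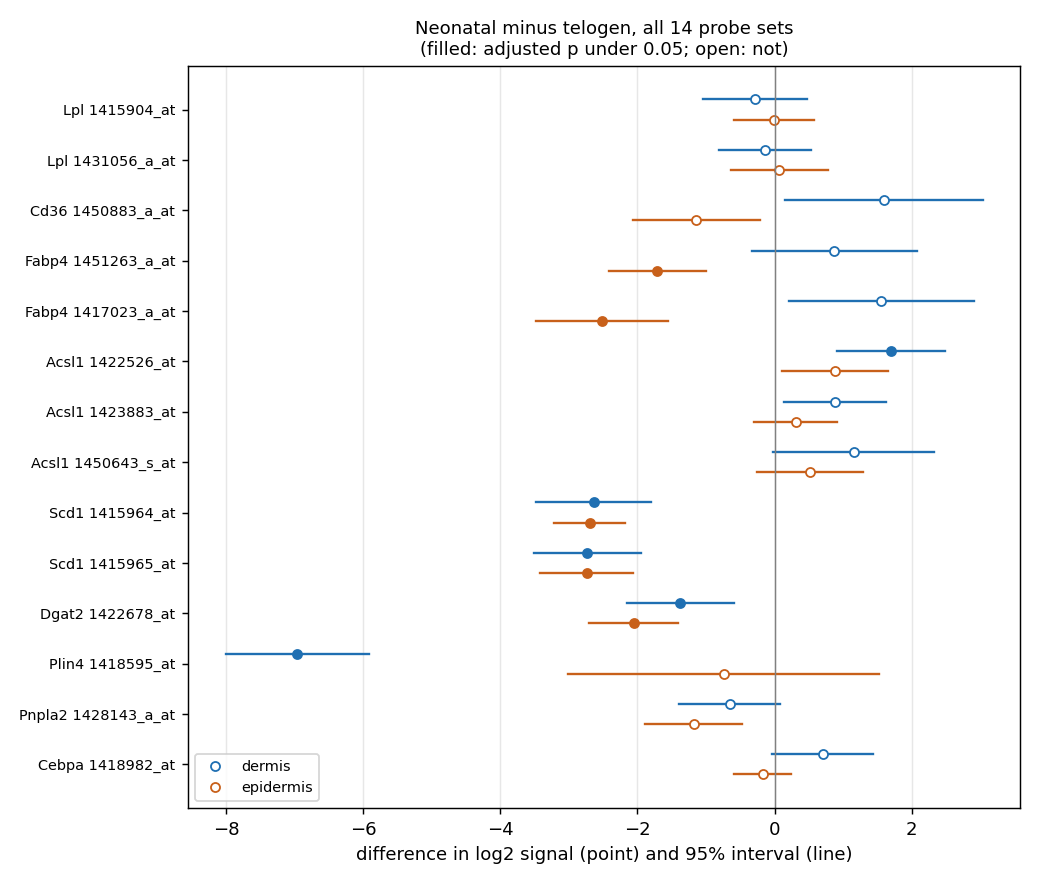
Neonatal minus telogen difference in log2 signal (horizontal axis) for each of the 14 probe sets (vertical axis), with 95% intervals, blue for dermis and orange for epidermis. Filled points have an adjusted p under 0.05. Scd1 and Dgat2 lie below 0 in both compartments, and Fabp4 and Cd36 lie above 0 in dermis and below 0 in epidermis.

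The difference between the compartments was itself tested. From telogen to neonatal skin, Fabp4 moved up in dermis relative to epidermis by 2.59 ± 0.63 (SE, limma adjusted p = 0.0203) and by 4.07 ± 0.76 on its second probe set (limma adjusted p = 0.00313), and Cd36 by 2.73 ± 0.79 (limma adjusted p = 0.0494). For Plin4, lower in dermis, the same contrast was -6.22 ± 1.17 (limma adjusted p = 0.0032). Of its 4 group means 3 lie under 3, so that size is not well measured, and with 16 added to the linear signals it was -3.00. These 4 of 14 compare with 5.67% of all probe sets, 3.14% higher and 2.54% lower, and 24.6% of named genes. With the mouse as a block, since dermis and epidermis of equal mouse number in a state were taken as the same mouse, the leading Fabp4 probe set lost its call (2.54, adjusted p = 0.126) and the other 3 kept theirs. Cd36 lost its call without any 1 of the 12 arrays compared except dermal telogen replicate 3 (adjusted p of 0.0633 to 0.111), and the leading Fabp4 probe set without dermal telogen replicate 4 or epidermal telogen replicate 3 (adjusted p of 0.0507 and 0.0556). With arrays centred on their medians Cd36 (2.34, adjusted p = 0.145) and the leading Fabp4 probe set (2.19, adjusted p = 0.0788) also lost theirs.

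Activation of beta-catenin in the epidermis was compared with telogen in both compartments. After sustained activation, dermal Lpl and Plin4 were lower and Cebpa higher, which makes 4 of 14 probe sets, 1 higher and 3 lower, where 11.0% of all probe sets, 7.19% higher and 3.8% lower, and 37.3% of named genes were called. The calls of Lpl and Plin4 held without each array in turn. Fabp4 differed by -1.67 ± 0.54 without passing the test (limma adjusted p = 0.0752). After transient activation 0 of 14 were called in dermis, where 0.488% of all probe sets, 0.384% higher and 0.104% lower, and 1.86% of named genes were called by limma, and 6378 probe sets had an unadjusted p under 0.05. Alternative settings called 0 to 2 members there. The median over the 9 genes was -0.84 after transient and -0.65 after sustained activation, against 0.13 and 0.42 over all probe sets and -0.06 and 0.09 over named genes. Between the activated states 1 probe set, the second of Lpl, was called, where 2.22% of all probe sets, 1.17% higher and 1.05% lower, and 10.5% of named genes were.

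In keratinocytes, 0 of the 14 probe sets were called in limma after transient activation (0.844% of all probe sets, 0.677% higher and 0.167% lower, and 3.79% of named genes), after sustained activation (1.15% of all probe sets, 0.624% higher and 0.522% lower, and 6.27% of named genes) or between them (0.0155% of all probe sets, 0.00666% higher and 0.00888% lower, and 0.11% of named genes). At an unadjusted p under 0.05 there were 8104, 5820 and 4215 probe sets in these comparisons. The smallest adjusted p belonged to Acsl1, whose 3 probe sets differed after sustained activation by -1.26 ± 0.35, -1.22 ± 0.27 and -1.11 ± 0.35 (limma adjusted p = 0.147, 0.0707 and 0.198). In dermis Acsl1 differed the other way, by 0.71 ± 0.35, and the contrast between compartments was called for all 3 probe sets at 1.97 ± 0.49, 1.60 ± 0.42 and 2.52 ± 0.64 (limma adjusted p = 0.0371, 0.0453 and 0.0402), where 2.77% of all probe sets, 1.59% higher and 1.18% lower, and 13.3% of named genes were called. With the mouse as a block all 3 lost their call (adjusted p = 0.190, 0.122 and 0.137), and so they did with arrays centred on their medians (adjusted p = 0.191, 0.174 and 0.0571). All 3 also lost it without dermal telogen replicate 2, epidermal telogen replicate 2 or 4 or any 1 epidermal sustained array, 2 of the 3 without any 1 dermal sustained array, and 1 of the 3 without dermal telogen replicate 3 or 4. For transient activation 0 of 14 contrasts were called (0.99% of all probe sets, 0.473% higher and 0.517% lower, and 4.21% of named genes), with 7332 probe sets at an unadjusted p under 0.05.

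**Figure D4:**
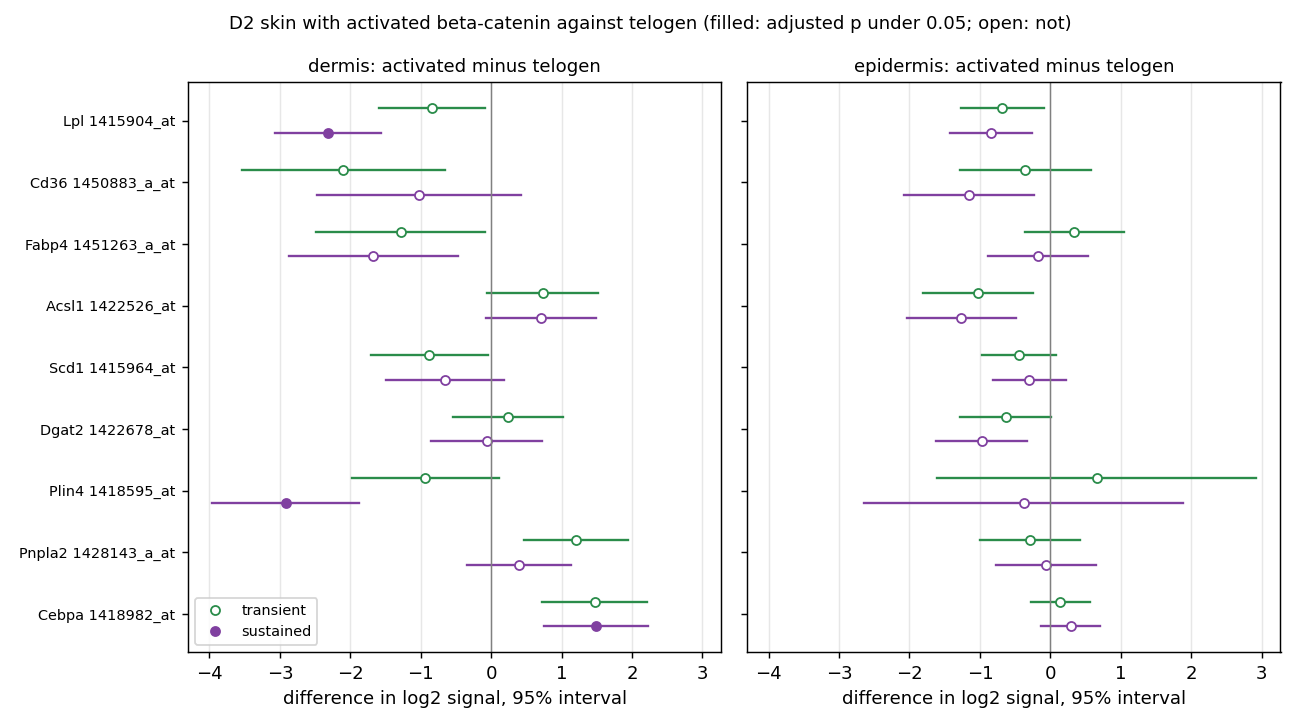
Difference in log2 signal from telogen (horizontal axis, with 95% intervals) after transient activation (green) and sustained activation (purple), for the leading probe set of each gene (vertical axis), in dermis (left) and epidermis (right). Filled points have an adjusted p under 0.05. Only dermal Lpl, Plin4 and Cebpa after sustained activation are filled.

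The activated groups were also set against neonatal skin, which the design includes as a second reference. Neonatal and transient dermis differed in 8 of 14 probe sets, where 8.55% of all probe sets, 3.83% higher and 4.72% lower, and 37.7% of named genes were called: Cd36 and both Fabp4 probe sets were higher and Plin4, Pnpla2, Dgat2 and both Scd1 probe sets lower in neonates. Neonatal and sustained dermis differed in 7 of 14 (4.35% of all probe sets, 1.49% higher and 2.86% lower, and 18.3% of named genes): both probe sets of Fabp4 and of Lpl were higher and Plin4 and both of Scd1 lower in neonates. In keratinocytes 7 of 14 differed from transient activation (5.94% of all probe sets, 1.96% higher and 3.98% lower, and 22.5% of named genes). From sustained activation 6 of 14 differed (4.88% of all probe sets, 1.64% higher and 3.24% lower, and 18.9% of named genes). Acsl1 was higher and Scd1 and Fabp4 lower in neonates in both, and Dgat2 lower against transient activation only. Against transient activation the third Acsl1 probe set was not called, and against sustained activation the second of Fabp4 was not. The leading one of Fabp4 lost its call there without any 1 neonatal array or sustained replicate 2 or 3 (adjusted p of 0.0587 to 0.0854). Against transient activation, leaving out any 1 of 5 arrays ended the second Acsl1 call (adjusted p of 0.054 to 0.0704). Any 1 of 4 arrays ended the Dgat2 call there (adjusted p of 0.0512 to 0.083). Dermal comparisons with telogen and with neonatal skin share the activated arrays and are not independent. Without neonatal replicate 1 the dermal counts fell to 3 against transient and 3 against sustained activation, and without epidermal neonatal replicate 3 the count against transient activation fell to 3. They also fell without dermal neonatal replicate 2 (4 and 4), dermal transient replicate 2 or 3 (5 each), dermal sustained replicate 2 (4) or 5 (3) and epidermal sustained replicate 3 (3).

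Set against each other, the compartments differed in 8 of the 9 genes in telogen, 7 after transient activation and 4 each in sustained and neonatal skin, counting a gene when any of its probe sets was called. In telogen, fibroblasts had more Lpl and Plin4 and less Acsl1, Cd36, Cebpa, Dgat2, Fabp4 and Scd1 than keratinocytes, and Pnpla2 differed by -0.49 with a 95% interval of -1.16 to 0.18. These were 13 of 14 probe sets, 3 higher and 10 lower, where 25.6% of all probe sets, 9.27% higher and 16.4% lower, and 58.3% of named genes were called. Acsl1 was lower in telogen fibroblasts by 5.75-fold (-2.52 ± 0.35, limma adjusted p = 2.53e-05), Fabp4 by 4.72-fold (limma adjusted p = 0.00102), Dgat2 by 3.12-fold (limma adjusted p = 0.000717) and Cebpa by 2.55-fold (limma adjusted p = 0.00062). Scd1 was lower by 2.05-fold (limma adjusted p = 0.0169), but with arrays centred on their medians that difference was -0.55 (adjusted p = 0.327), and it was lost without dermal telogen replicate 3 or 4 or epidermal telogen replicate 2 or 3 (adjusted p of 0.0523 to 0.0673). Such centring moves the median of all probe sets in this comparison, -0.32, to 0.

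In the other states fewer probe sets were called. After transient activation 11 of 14 differed (25.6% of all probe sets, 9.09% higher and 16.5% lower, and 52.9% of named genes), with Lpl, Plin4 and Pnpla2 higher and Cd36, Fabp4, Scd1 and 2 of 3 Acsl1 probe sets lower in fibroblasts. After sustained activation 7 of 14 differed (12.6% of all probe sets, 6.33% higher and 6.22% lower, and 34.6% of named genes), with Lpl higher and Cd36, Fabp4 and Scd1 lower in fibroblasts, Fabp4 by 13.3-fold (-3.74 ± 0.45, limma adjusted p = 1.03e-05). In neonates 7 of 14 differed (15.8% of all probe sets, 7.44% higher and 8.33% lower, and 39.7% of named genes), with Lpl higher and Acsl1, Dgat2 and 1 of 2 Scd1 probe sets lower in fibroblasts. The mouse as a block left the counts of the other states at 13, 11 and 7 but lowered the neonatal count to 2, both of Lpl (2.08 and 2.24), where only 2 of the neonatal mouse numbers occur in both compartments. Single arrays decided some of these calls. The leading Lpl call after sustained activation was lost without dermal sustained replicate 3 or 5 or epidermal sustained replicate 2 (adjusted p of 0.0644 to 0.1), the second without the last of these. The Pnpla2 call was lost without replicate 2 or 4 of transient dermis or replicate 2 or 3 of transient epidermis (adjusted p of 0.0739 to 0.0861). The neonatal Dgat2 call was lost without dermal replicate 1 or 3 or any 1 epidermal array (adjusted p of 0.0635 to 0.206), and the Scd1 call without dermal replicate 1 or 2 or any 1 epidermal array (adjusted p of 0.0549 to 0.146).

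**Figure D5:**
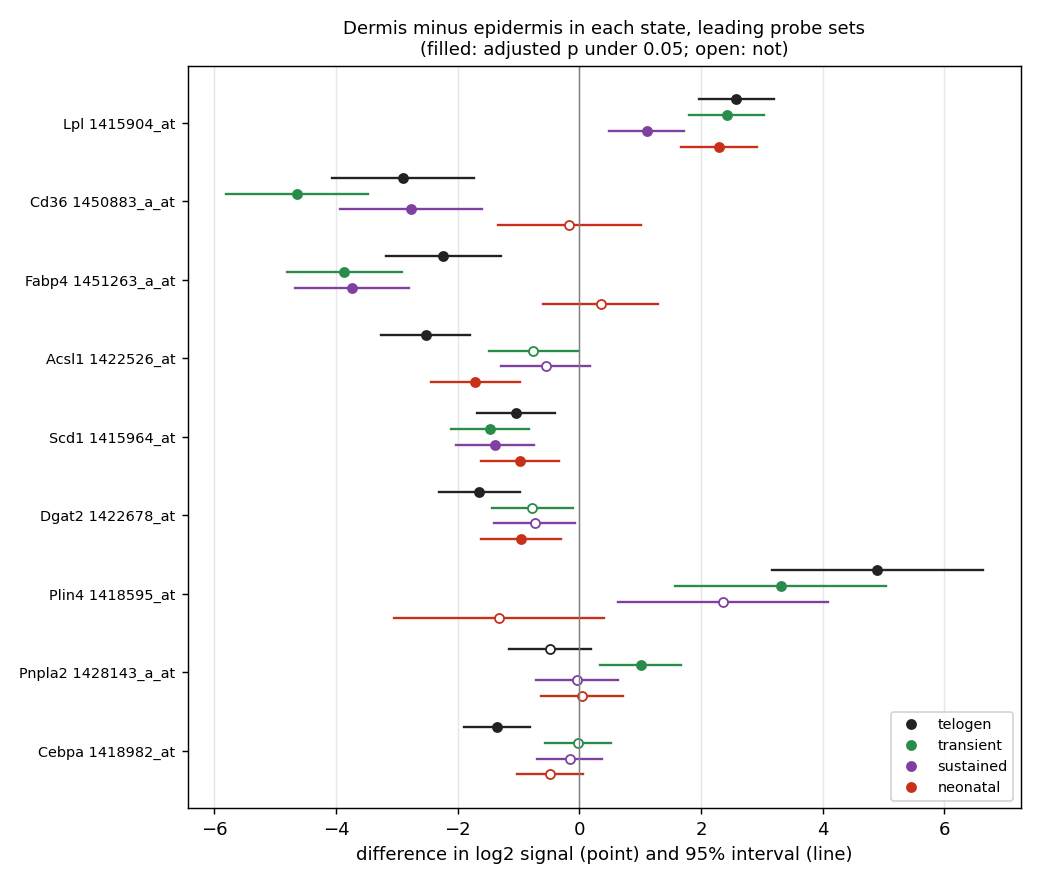
Dermis minus epidermis difference in log2 signal (horizontal axis, with 95% intervals) in each of the 4 states (colours) for the leading probe set of each gene (vertical axis). Filled points have an adjusted p under 0.05. Lpl lies above 0 in every state, the intervals of Cd36 and Fabp4 lie below 0 in every state except the neonatal, and the Plin4 difference is 4.90 in telogen and -1.32 in neonates.

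Other genes of fat metabolism were followed in 8 lists with 111 entries, of which 47 have a name here. Between neonatal and telogen dermis 8 of the 47 were higher and 17 lower, a share of 53.2%, beside 51.6% of all named genes. Of 8 named regulators of fat cell formation 1 was higher and 6 were lower. Klf15, a regulator of adipogenesis and metabolism, changed by -5.26 ± 1.09 log2 units (means 0.11 against 5.37, limma adjusted p = 0.0116), Cebpd, an early regulator, by -4.20 ± 0.53 (4.56 against 8.76) and Ebf2, a marker of committed preadipocytes, by -3.86 ± 0.82 (2.31 against 6.17). The neonatal means of Klf15 and Ebf2, and that of Scd3 below, lie under 3, so the sizes of their differences are not well measured. Of 7 surface markers and inhibitors of preadipocytes 2 were higher, Cd24a by 4.69 ± 0.45 and Dlk1, an inhibitor of fat cell formation, by 2.80 ± 0.72, and 3 were lower, among them Ly6a at -2.79 ± 0.26. The desaturase Scd3 was lower at -4.75 ± 0.76 and Fads2 higher by 2.28 ± 0.56, the acyl-CoA synthetase Acsl5 lower at -2.13 ± 0.24 and the binding protein Fabp5 higher by 1.96 ± 0.25. Of 3 named genes of triglyceride assembly 2 were lower (Lpin3, -2.61 ± 0.54, and Agpat4, -1.22 ± 0.26), and of 6 of lipolysis and oxidation 1 was higher (Ucp2, 2.17 ± 0.39) and 3 lower, among them Cpt2 (-1.61 ± 0.34) and the monoglyceride lipase Mgll (-1.39 ± 0.29). Of 4 droplet proteins Bscl2 (seipin) was lower at -0.98 ± 0.19, and of 4 secreted factors Rbp4 was higher by 4.38 ± 0.52.

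After sustained activation 5 of the 47 were higher and 9 lower in dermis, a share of 29.8% beside 37.3% of named genes. Among the regulators Ebf2 was lower at -4.55 ± 0.82 (1.61 against 6.17, limma adjusted p = 0.00848) and Cebpd at -2.21 ± 0.53, while Klf5 was higher by 2.16 ± 0.33. The sustained mean of Ebf2 and the telogen dermal mean of Elovl7 below also lie under 3. Dpp4, a surface marker of fibroblasts that include fat cell progenitors, was lower at -3.67 ± 0.37 (6.22 against 9.90, limma adjusted p = 0.000852) and Ly6a at -2.13 ± 0.26, while Cd24a was higher by 3.14 ± 0.45. The elongase Elovl7 was higher by 2.88 ± 0.76, Fabp5 by 1.15 ± 0.25 and Ucp2 by 1.73 ± 0.39, and Cpt2 was lower at -1.50 ± 0.34. Klf5, Elovl7, Fabp5, Ucp2 and Cd24a were all higher in telogen keratinocytes than in telogen fibroblasts, with dermis minus epidermis differences of -3.89 ± 0.29, -5.16 ± 0.59, -2.40 ± 0.27, -4.83 ± 0.40 and -4.23 ± 0.36, and the keratinocyte marker sum in dermis was highest in the same state, at 1348 to 2092. Its part in these differences was not tested. After transient activation 0 were higher and 1 lower, the elongase Elovl4 (-3.46 ± 0.41, 3.68 against 7.14, limma adjusted p = 0.0118), which was higher again in sustained than in transient dermis by 2.94 ± 0.41.

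In the epidermis 4 of the 47 were higher and 14 lower in neonates than in telogen, a share of 38.3% beside 29.1% of named genes. The acyl-CoA synthetases Acsl4 and Acsbg1 were lower at -3.02 ± 0.25 and -2.72 ± 0.34, the glycerol acyltransferase Gpam at -1.43 ± 0.21, the droplet proteins Fitm2 and Plin2 at -1.75 ± 0.31 and -1.40 ± 0.31, and Ppara, which drives fatty acid oxidation, at -2.01 ± 0.39. The lipoprotein receptor Vldlr was higher by 2.15 ± 0.43, Klf5 by 1.64 ± 0.28 and the desaturase Scd2 by 0.99 ± 0.24, so the desaturases Scd1 and Scd2 moved in opposite directions. After sustained activation Scd2 was the 1 gene of the 47 called in epidermis, higher by 2.10 ± 0.24 (10.05 against 7.95, limma adjusted p = 0.00632), and after transient activation 0 were called.

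Among 4551 other named genes, those whose dermal pattern was most like each member over 12 arrays were found by Pearson correlation, given as a description since the arrays share 4 states. Lpl was most like Pdgfd and Dpp4 (0.97 each), Plin4 like Trim30a and Hspb8 (0.99 each), Fabp4 like Lman1 (0.96) and Zyx (0.95), and Cebpa like Scube3 (0.97) and Gdf10 (0.96). Scd1 was most like D030056L22Rik (0.97) and Insig2 (0.96), Cd36 like Vgll3 (0.92) and Cav1 (0.89), Dgat2 like Gdap10 and Il17rd (0.93 each), Acsl1 like Maz (0.93) and Gtf2ird1 (0.91), and Pnpla2 like Rspo4 (0.95) and Gpr165 (0.92). Over the 12 epidermal arrays the correlation was above 0.8 for 3 of these 18 pairs, both Scd1 pairs and the pair of Dgat2 and Gdap10.

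The authors' deposited table of regulated genes lists these probe sets in 50 entries. All 50 have the direction found here, 39 (78.0%) were also called here, and 39 are 90.7% of the 43 calls within compartments. The member probe sets were named from that table, which rests on the same arrays, so this overlap is not an independent check. In the authors' deposited table Plin4 is 10.5-fold down in neonatal against telogen dermis and 7.64-fold down after sustained activation, and Lpl 4.11-fold and 5.01-fold down after sustained activation. Cebpa is listed there as 2.51-fold up after transient activation, and in epidermis after sustained activation Acsl1 is listed as 2.59-fold, 2.25-fold and 2.06-fold down and Dgat2 as 2.43-fold down, comparisons that did not pass the test across all probe sets here.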

How the data were processed

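Cells from 24 sorted samples were profiled on Affymetrix arrays, 3 mice per group, and the labels give each array of a group its own mouse number. Both RMA and MAS5 appear in the submitters' processing notes, with no statement of which produced the values. Deposited values are on a log2 scale. On the linear scale every array has a mean of 100.02 to 100.03 after trimming 2% at each end, as MAS5 scaling gives. Per the file headers, the authors' lists of regulated genes give the change of each gene as a fold (linear ratio) and its direction, and gene names came from these lists through Entrez identifiers. The number of arrays limits the precision.

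After removal of 64 controls from 45101 probe sets, values were used as deposited, with no filter on low values. A model of group means was fitted in limma 3.58.1 (under R 4.3.3) to the 12 arrays of each compartment, and to all 24 arrays for contrasts between compartments. P-values were adjusted by Benjamini-Hochberg over 45037 probe sets, for 19 comparisons separately. The code was tested on simulated data. The members and lists were chosen with earlier results of these data known. A gene is led by its probe set of highest mean signal over the 24 arrays. Of other lists, up to 3 genes each with the largest difference among those called were eligible to be named. The 2 most correlated genes are named per member. The 5 genes whose telogen compartment difference is set beside sustained activation were chosen after their values were seen.

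Equal mouse numbers in dermis and epidermis of a state were taken as the same mouse, which the labels do not state outright. They gave 11 pairs, whose deviations from group means correlated at -0.052 to 0.153 (median 0.017). Alternatives were quantile normalization, median centring, leaving out dim probe sets, trend and robust eBayes, other sets of arrays, the mouse number as a block, 1 probe set per gene, and each array left out in turn. An offset of 16 and leaving out epidermal transient replicate 4 elsewhere were added after seeing the data.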

Additional observations from a re-analysis of the deposited data

Results flagged for a closer look

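For 4 probe sets of 3 genes the difference between neonatal and telogen skin was not the same in dermis and epidermis by an interaction test in limma over all 24 arrays. Dermis minus epidermis, that change was 2.73 ± 0.79 log2 units for Cd36 (SE, limma adjusted p = 0.0494), 2.59 ± 0.63 and 4.07 ± 0.76 for the 2 probe sets of Fabp4 (limma adjusted p = 0.0203 and 0.00313) and -6.22 ± 1.17 for Plin4 (limma adjusted p = 0.0032). Cd36 and Fabp4 were higher in neonatal than in telogen dermis, on average, and lower in neonatal than in telogen epidermis. Plin4 had means under 3 in neonatal dermis and in both epidermal groups, and with 16 added to the linear signals its value was -3.00. Cd36 and the leading Fabp4 probe set lost their calls with arrays centred on their medians. Leaving out any 1 of 11 arrays ended the Cd36 call, and any 1 of 2 the leading Fabp4 call. With the mouse as a block the leading Fabp4 probe set lost its call too.

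For Acsl1 the difference between sustained activation and telogen was not the same in the compartments, at 1.97 ± 0.49, 1.60 ± 0.42 and 2.52 ± 0.64 on its 3 probe sets (limma adjusted p = 0.0371, 0.0453 and 0.0402). It was higher in dermis and lower in epidermis after sustained activation, on average, without a call in either compartment alone. All 3 contrasts lost their call with the mouse as a block and with arrays centred on their medians. They also lost it without any 1 of 8, 9 and 9 arrays. The third probe set read 2.82 to 3.70 in telogen dermis, near the noise.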

How the results depend on the processing

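No called difference of a member probe set changed direction under any alternative. Of 88 calls, 88 remained with trend and robust eBayes, 86 with the added offset, 83 with quantile normalization and 70 with median centring, as did all 81 that could be tested without dim probe sets and all 43 with 24 arrays in one fit. Fitting only the arrays compared kept 54 and the replicate block 52. With each array left out in turn, the call was kept in 472 of 615 checks and lost in 143. The setting of 1 probe set per gene tested 9 probe sets in place of 14, so its counts have a smaller base. The counts of calls that moved by over 1.5 times are these. With 1 probe set per gene, neonatal against sustained dermis gave 4, sustained against transient dermis 0, neonatal epidermis against telogen 3, transient 4 and sustained 3, dermis against epidermis 4 in neonates, 8 in telogen, 6 in transient and 4 in sustained skin, and the sustained interaction 1. With all 24 arrays, sustained against telogen dermis gave 7, sustained against transient 2, transient against telogen 1 and sustained against telogen epidermis 1. With trend and robust eBayes, sustained against transient dermis gave 3, transient against telogen dermis 2, neonatal against sustained epidermis 10, sustained against telogen epidermis 2, transient against telogen epidermis 1, the sustained interaction 5 and the transient 2. Without dim probe sets these were 2, 1, 11, 2, 0, 5 and 3, and with the offset 3, 1, 11, 1, 0, 7 and 3. Quantile normalization gave 2 for sustained against transient dermis and 0 for the sustained interaction, and centring 0 for the sustained and 2 for the neonatal interaction. With only the arrays compared, neonatal against transient dermis gave 4, sustained against transient dermis 0, neonatal epidermis 0 against transient and 3 against sustained, the sustained interaction 0 and dermis against epidermis 4 in sustained and 6 in transient skin.

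The replicate block (mouse number) gave 0 for neonatal against sustained dermis, 1 for neonatal against transient, 0 for sustained against telogen, 0 for sustained against transient, 1 for neonatal against sustained epidermis, 2 for neonatal dermis against epidermis and 0 for the sustained interaction. Within a compartment equal numbers were taken as different mice, and the block there uses up degrees of freedom. It also changes estimates, because a number found on only 1 array of a compartment takes up that array. This holds for neonatal replicate 1 and sustained replicate 5 in dermis, and for sustained replicate 5 in epidermis. The block moved no other count by over 1.5 times. Leaving out 1 array at a time gave 3 to 5 for neonatal against sustained dermis, 3 to 7 against transient and 4 to 5 against telogen, 3 to 4 for sustained against telogen dermis, 0 to 1 against transient, and 0 for transient against telogen. It gave 3 to 6 for neonatal epidermis against sustained and transient each, 4 to 5 against telogen, 2 to 4 for the neonatal, 0 to 3 for the sustained and 0 to 1 for the transient interaction. The count for sustained against transient dermis was 0 without transient replicate 2 or any 1 sustained array, and the neonatal interaction was 2 without telogen dermal replicate 4 or epidermal replicate 3. The transient interaction was 1 without dermal telogen replicate 3 or dermal transient replicate 2. Where a cause is not given, the cause was not tested. Signals under 3 limit Plin4 in neonatal dermis and in epidermis, and Klf15, Ebf2, Scd3 and Elovl7 in some dermal groups. They also limit Cd36, Pparg and the third Acsl1 probe set on some dermal arrays.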
